A study of Mus musculus with 2 samples.

Results

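The genes described here are Cd4, Lag3, Cd8a and Cd8b1, which encode the co-receptors of T cells and one relative, 4 of the 21911 protein-coding genes of the annotation. They were chosen by name with earlier H3K27me3 results on the same peak lists known, Cd4 having been seen with a peak at its start, so all their values are a description and carry no test. Trimethylation of lysine 27 of histone H3 (H3K27me3) was read out by immunoprecipitating chromatin and sequencing it (ChIP-seq) in MEL cells, an immortalized mouse erythroleukaemia line that the labels call an analog of K562. All data come from 1 group of 2 biological replicates, with age and developmental stage given as unknown and with no genetic change or agent in the labels. Nothing in the sources says that the replicates were separate cultures, and their peaks were called against 1 shared control, so the spread between them may be technical.

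CD4 and CD8 are surface proteins of T cells that bind MHC class II and class I molecules beside the T-cell receptor and bring the kinase Lck to it. Lag3, next to Cd4 on the chromosome, encodes an inhibitory receptor that is related to CD4 in structure and also binds MHC class II. Cd8a and Cd8b1 encode the chains of CD8 and lie side by side. In T cells Cd4 is switched off in the CD8 lineage through a silencer in its intron 1 that RUNX proteins bind, while enhancers between Cd8b1 and Cd8a take part in driving the Cd8 genes. H3K27me3 is placed by Polycomb repressive complex 2 and is known from silent genes, among them genes of other lineages.

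All 4 genes lie on chromosome 6 of mm10 (GRCm38). Cd4 (ENSMUSG00000023274.14) spans 124864692 to 124888221 on the minus strand, and Lag3 (ENSMUSG00000030124.2) spans 124904361 to 124911705 on the same strand, upstream of it. Cd8b1 (ENSMUSG00000053044.8) spans 71322788 to 71337494 and Cd8a (ENSMUSG00000053977.13) spans 71373427 to 71379173, both on the plus strand. Each gene was read with 20 kb on each side, here called its window. Because the pairs are neighbours, the windows of Lag3 and Cd4 share 23861 bp and those of Cd8a and Cd8b1 share 4068 bp.

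The 4 deposited peak lists were those of replicate 1 (70901 peaks, 16.1 Mb covered), replicate 2 (106995 peaks, 23.9 Mb), the pooled alignments (69721 peaks, 19.1 Mb) and a replicated list kept from the pooled one (38298 peaks, 13.01 Mb). Read counts are not part of these lists, and depth is unknown. They admit weak peaks, since a −log10 q-value of 2 was reached by 10.9% of the replicated peaks, 6.04% of the pooled, 30.8% of those of replicate 1 and 11.99% of those of replicate 2. A base outside a peak is therefore not shown to lack the mark. Coverage in the replicated list is not separate support for coverage in the replicates, from which it was derived. Nor does a replicated peak always overlap a peak in both replicates' own lists. For example, the replicated peaks at 124887970 to 124888135 and at 71305966 to 71306238 overlapped a peak of replicate 2 alone.

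Sequence is shown for 4 replicated peaks in or between these genes, and for the uncovered stretch before Cd8a. The lines give, in order, the strongest peak in the Cd4 body (chr6:124870028-124870327), the strongest peak in Cd4 intron 1 (chr6:124882377-124882676), the last peak before Lag3 (chr6:124895860-124896159), the stronger of the peaks between the Cd8 genes (chr6:71354701-71355000) and the 250 bases before the Cd8a start (chr6:71373177-71373426). The peak sequences are 300 bases of GRCm38 centred on each peak, the Cd4 and Lag3 ones on the minus strand, and the Cd8a stretch is from the RefSeq promoter table of GRCm38.p6. That table matched 1 of the 4 genes, Cd8a. Capitals mark TGTGGT, the core read by RUNX proteins, or GATAA, found within GATA factor sites, each on either strand (ACCACA and TTATC on the other).
Cd4 body: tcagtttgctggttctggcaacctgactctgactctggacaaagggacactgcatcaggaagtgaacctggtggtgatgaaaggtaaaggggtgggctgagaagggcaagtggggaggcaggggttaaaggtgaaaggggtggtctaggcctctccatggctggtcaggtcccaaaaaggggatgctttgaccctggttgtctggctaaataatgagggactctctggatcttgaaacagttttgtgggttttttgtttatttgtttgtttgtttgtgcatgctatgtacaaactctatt
Cd4 intron 1: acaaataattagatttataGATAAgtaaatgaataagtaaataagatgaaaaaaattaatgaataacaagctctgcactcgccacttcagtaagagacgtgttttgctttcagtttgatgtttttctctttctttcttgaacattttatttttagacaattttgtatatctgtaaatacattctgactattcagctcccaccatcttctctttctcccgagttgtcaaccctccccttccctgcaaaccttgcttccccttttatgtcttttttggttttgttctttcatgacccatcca
Cd4 to Lag3 gap: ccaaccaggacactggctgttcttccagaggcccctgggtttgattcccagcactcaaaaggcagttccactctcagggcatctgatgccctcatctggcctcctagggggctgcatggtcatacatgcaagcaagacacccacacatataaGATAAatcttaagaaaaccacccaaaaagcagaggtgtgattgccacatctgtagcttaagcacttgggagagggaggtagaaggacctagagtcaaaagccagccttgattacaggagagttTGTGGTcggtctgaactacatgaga
Cd8b1 to Cd8a gap: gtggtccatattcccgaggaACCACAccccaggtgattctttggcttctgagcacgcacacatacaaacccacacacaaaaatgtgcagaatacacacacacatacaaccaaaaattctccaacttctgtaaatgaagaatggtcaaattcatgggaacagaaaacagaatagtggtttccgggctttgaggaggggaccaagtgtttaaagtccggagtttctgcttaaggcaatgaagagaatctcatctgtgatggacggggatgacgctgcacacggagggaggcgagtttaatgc
Cd8a upstream: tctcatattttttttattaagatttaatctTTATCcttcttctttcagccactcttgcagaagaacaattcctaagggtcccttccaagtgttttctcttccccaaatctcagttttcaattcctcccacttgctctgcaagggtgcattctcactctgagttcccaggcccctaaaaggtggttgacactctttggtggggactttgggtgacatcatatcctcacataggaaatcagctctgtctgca

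The 300 bases shown for the strongest Cd4 peak held neither motif and 0 CG dinucleotides. Motifs were counted in the 300 bases centred on each replicated peak. The median replicated peak was 278 bp wide, so at narrower peaks these stretches include bases outside the peak. TGTGGT occurred in 6 of the 31 stretches of the Cd4 and Lag3 windows (19.4%) and in 20.9% of those of all replicated peaks. GATAA occurred in 11 of 31 (35.5%) against 37.3%. In the 250 bases before the start, over the 32851 promoters of the promoter table, the shares were 14% and 22.6%. Matches of the motifs can share an end base, and a match is a string of letters, not a bound site. The Cd8a upstream stretch had 1 GATAA, on the other strand, and 0 CG, where 92.1% of such stretches held at least 1 CG.

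Cd4 was the one gene of the 4 with a peak within 1 kb of its start, and it was so in every list. This made 1 of 4 in the replicated list, where 3.003% of all protein-coding genes had such a peak, and 1 of 4 in the pooled list (4.48%), in replicate 1 (4.46%) and in replicate 2 (6.28%). Replicated peaks covered 666 bases within 1 kb of the Cd4 start, with 600 in replicate 1 and 741 in replicate 2. At Lag3, Cd8a and Cd8b1 the same stretch held 0 covered bases in all 4 lists. The count of 1 was used in choosing the genes and is read no further.

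All 4 windows held peaks in every list, where 30.9% of gene windows did so in the replicated list, 39.2% in the pooled, 42.2% in replicate 1 and 49.8% in replicate 2. These are not 4 separate counts, because the windows overlap. All replicated coverage of the Lag3 window lay in the Cd4 window, and all of that of the Cd8a window in the Cd8b1 window. Most of the genes' peaks belonged to Cd4. Its window was covered over 15.5% in replicate 1 and 20.9% in replicate 2 (mean 18.2% ± 3.78, SD, n = 2), and over 17.9% by replicated peaks. The Lag3 window was covered over 5.50% and 4.06% (4.78% ± 1.02, n = 2) and over 3.67% by replicated peaks. The Cd8b1 window gave 3.64% and 5.35% (4.50% ± 1.20, n = 2), with 3.67% replicated. The Cd8a window gave 2.69% and 3.73% (3.21% ± 0.736, n = 2), with 1.45% replicated. Both values of Cd4 lay above every value of the other genes, while the ranges of Lag3 and Cd8b1 overlapped, as did those of Cd8b1 and Cd8a. Replicate 2 was the higher at Cd4 and both Cd8 genes and replicate 1 at Lag3.

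**Figure D1:**
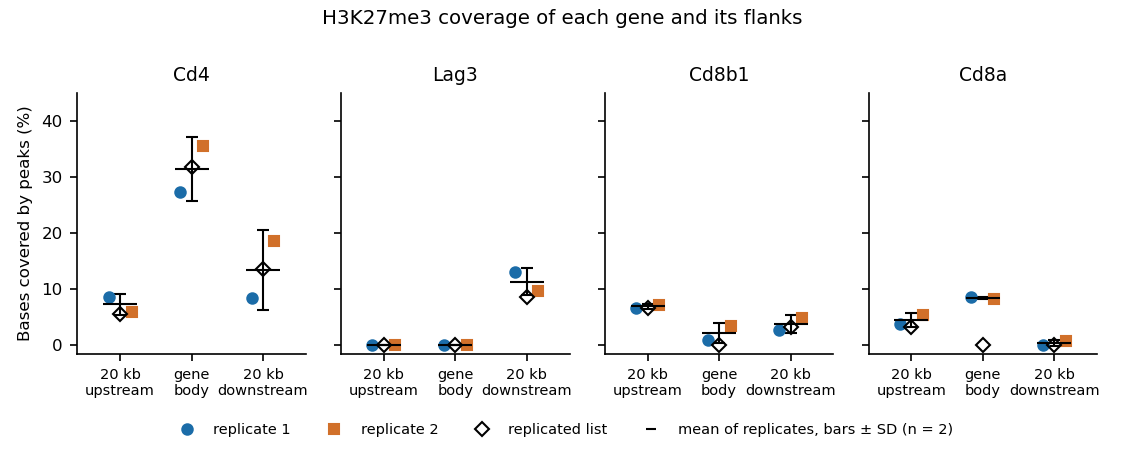
Percent of bases covered by peaks (y axis) in the 20 kb upstream, the gene body and the 20 kb downstream of each gene (x axis), with points for each replicate, diamonds for the replicated list and bars for the mean ± SD of the replicates (n = 2). The Cd4 body stands at 27.4% and 35.5%, the Lag3 body at 0 in both replicates.

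Among all protein-coding genes the median window was covered over 0% and the mean over 0.901% by replicated peaks. A window share as high as that of Cd4 was reached by 124 genes, or 0.566%, Cd4 included. The share was 7.35% of genes for Lag3 and for Cd8b1, and 14.7% for Cd8a.

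**Figure D2:**
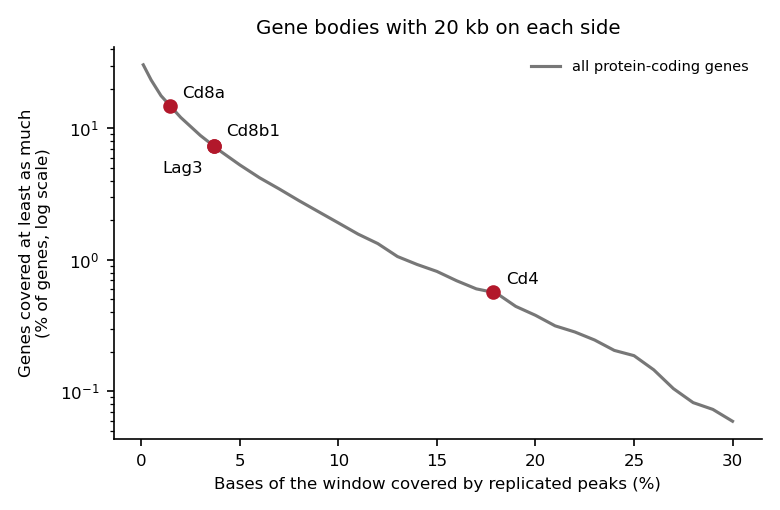
Share of protein-coding genes (y axis, log scale, percent) whose window is covered by replicated peaks at least as much as the value on the x axis (percent of bases), drawn as a line, with the 4 genes as points. Cd4 lies at 17.9% covered and 0.566% of genes, far along the tail from Lag3, Cd8b1 and Cd8a.

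The body of Cd4 carried the densest marking. Replicated peaks covered 7489 of its 23530 bases (31.8%), with 27.4% in replicate 1 and 35.5% in replicate 2 (31.5% ± 5.76, n = 2). Only 57 protein-coding genes, or 0.260%, had a body covered as much, and 2 of the 1112 on chromosome 6, both counts including Cd4. The 20 kb downstream, toward P3h3, were covered over 13.7% by replicated peaks (8.45% and 18.6% in the replicates). The 20 kb upstream, toward Lag3, were covered over 5.64% (8.64% and 5.91%). Between the replicates the downstream share differed by more percentage points than the body share did.

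In the replicated list the longest run of peaks in Cd4 lay over the 3′ portion of the gene. Replicated peaks joined across gaps of up to 3 kb formed a domain of 11277 bp (124864116 to 124875392) that ran from just past the gene's 3′ end into intron 3, with 14 peaks covering 50.9% of it. Domains at least as long made up 385 of 14456 in the replicated list (2.66%). A shorter domain of 2802 bp lay in intron 1 (124879974 to 124882775, 5 peaks), and another of 9233 bp, with 18.8% covered, ran from intron 1 across the Cd4 start toward Lag3 (124886913 to 124896145). Neither replicate's own list had this split. Joined in the same way, the peaks of replicate 1 formed 1 domain of 38362 bp and those of replicate 2 formed 1 of 27797 bp, each taking in the 3′ portion, intron 1 and the start. In the replicated list the domain over the 3′ portion and that in intron 1 were separated by 4581 bp without a replicated peak, which hold exons 2 and 3. In that gap replicate 1 had 4 peaks and replicate 2 had 3, none of which overlapped one of the other replicate.

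The strongest replicated peak of the locus was 317 bp wide at 124870019 to 124870335, over the border of exon 6 and intron 6. The authors' values for it were a signal of 5.60, a −log10 p-value of 8.17 and a −log10 q-value of 3.15, and 1.51% of replicated peaks had as high a −log10 p. In replicate 2 the peak there reached a −log10 p of 11.8, matched or passed by 149 peaks of that list (0.139%). In replicate 1 the peak there had 5.53, and the strongest peak of the gene lay instead in intron 3 (124873851 to 124874129), with a −log10 p of 10.7. The widest replicated peak spanned 1820 bp (124872879 to 124874698, −log10 p 7.17) and took in all of exon 4. Both replicates thus had their strongest peaks inside the same 11277 bp, at different positions.

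Peaks covered exons and introns of Cd4, numbered along its transcript Cd4-201. Replicated peaks covered 38.1% of exonic bases (35.9% and 38.6% in the replicates) and 30.9% of intronic bases (26.1% and 35.1%). Exon 6 was covered over 89.0% (68.8% and 88.1%). Exons 5 and 9 had 0 covered bases in every list. Intron 1, which holds the silencer, is 8386 bp long and was covered over 26.8% (24.4% and 29.95%), beside 30.9% for all introns. Its strongest replicated peak (124882277 to 124882775) had a −log10 p of 5.27, and the replicates had peaks of 6.48 and 8.48 there. The silencer was not located within intron 1, so whether any peak covers the silencer was not tested.

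Within 1 kb of the Cd4 start the replicated list had 3 peaks, with −log10 p values of 3.58, 3.58 and 4.08, where the peaks of the body had a median of 3.62. The nearest replicated peak (124887970 to 124888135) lay 86 bp inside the gene with a −log10 p of 3.58 and a −log10 q of 0.533. Replicate 2 had its own peak there, 55 bp inside, with a −log10 p of 6.48. The nearest peak of replicate 1 was 369 bp inside, at 3.76, and did not overlap it. Replicate 1 had a stronger peak that also reached within 1 kb of the start (124886901 to 124887332), with a −log10 p of 6.48, and it overlapped a peak of replicate 2 (124887118 to 124887345) at 4.62. Each replicate thus had a peak near the start past a −log10 q of 2, at 2.69 in replicate 1 and 2.58 in replicate 2, while 0 of the 4 genes kept one at that value in the replicated list. Of the 31 replicated peaks of the locus, 5 reached that value, 4 of them in the Cd4 body and 1 in P3h3.

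**Figure D3:**
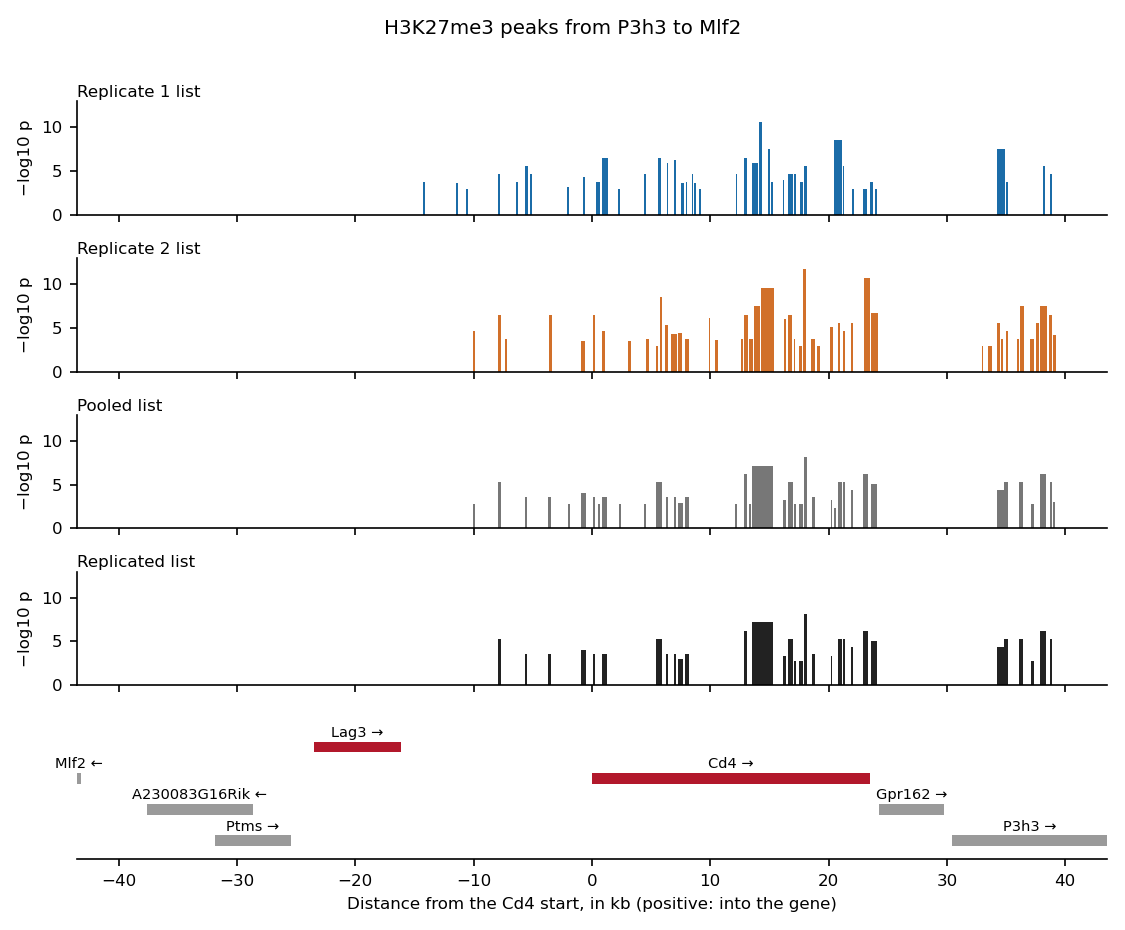
Peaks of each list around Cd4 and Lag3, by distance from the Cd4 start in kb (x axis, positive into the gene) and the authors' −log10 p (y axis, bar width is peak width), above bars for the genes, the described genes in red and arrows for the direction of transcription. Peaks are spread over the Cd4 body and part of P3h3 in all 4 lists, with uncovered stretches between them, and leave Gpr162, Lag3, Ptms and Mlf2 free.

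Lag3 itself carried no peak. Its 7345 bp body and the 20 kb upstream of it held 0 covered bases in all 4 lists. All covered bases of its window lay in the stretch shared with the Cd4 window (1736 of 1736 in the replicated list, 2605 of 2605 in replicate 1 and 1923 of 1923 in replicate 2). The marking of the Lag3 window is therefore that of the Cd4 start and the gap between the genes, counted again.

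The border on the Lag3 side differed between lists. The last replicated peak ended at 124896145, 7924 bp upstream of the Cd4 start and 8215 bp short of the Lag3 3′ end. In replicate 1 the last peak ended 1879 bp short of Lag3, in replicate 2 6106 bp and in the pooled list 6122 bp. No list had a peak past the Lag3 3′ end within its window. Beyond the border the replicated list was free of peaks for 316387 bp and replicate 1 for 306700 bp, but replicate 2 for 90659 bp and the pooled list for 50973 bp. Ptms, which encodes parathymosin, the antisense transcript A230083G16Rik that overlaps it, and the myeloid leukaemia factor gene Mlf2 had 0 covered bases in all 4 lists.

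On the other side the peaks stopped between Cd4 and Gpr162. Gpr162, which encodes an orphan G protein-coupled receptor, had 0 covered bases in its body in all 4 lists, inside a peak-free stretch of 10097 bp in the replicated list (10101 and 8790 bp in the replicates). Its start was still within 1 kb of a peak in every list, since the outermost peak of the Cd4 domain (124864116 to 124864668) lies between these neighbours. Past that stretch P3h3, a prolyl hydroxylase gene of collagen modification, was covered over 13.1% (7.86% and 18.9%), in a domain of 4687 bp. The next replicated peak beyond the Cd4 window on that side was 50683 bp away.

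At Cd8b1 and Cd8a the replicated list had no peak in either gene body. It held 5 peaks in the 96386 bp of the joint windows, against 31 in the 87014 bp around Cd4 and Lag3, and the highest −log10 p was 5.29 against 8.17. Of the 5 peaks, 3 lay in introns of Smyd1, a methyltransferase gene of heart and skeletal muscle, in a domain of 4727 bp that begins outside the window (71301512 to 71306238). The other 2 formed a domain of 706 bp between the Cd8 genes (71354316 to 71355021), over the long non-coding RNAs Gm44174 and Gm44175. They had −log10 p values of 3.58 and 4.41, and each overlapped a peak in both replicates. These 665 bases made up all the replicated coverage of the Cd8a window and are counted in the Cd8b1 window as well. Rmnd5a, a ubiquitin ligase subunit gene past Cd8a, had 0 covered bases in all 4 lists.

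The replicates' own lists had peaks in the Cd8 gene bodies that did not coincide. The Cd8a body was covered over 8.60% in replicate 1 and 8.32% in replicate 2, yet none of the 3 peaks of the former overlapped either of the 2 of the latter. They lay from intron 3 to exon 5, with −log10 p from 2.96 to 4.62. In the Cd8b1 body replicate 1 had 1 peak, at exon 3, and replicate 2 had 2, at exon 2 and in intron 2, again without overlap. The exon 2 peak of replicate 2 (71325964 to 71326210) was the strongest of these, with a −log10 p of 6.48 and a −log10 q of 2.58. With 1 of 4 gene bodies holding a replicated peak, Cd4, the share for all protein-coding genes was 11.5%.

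**Figure D4:**
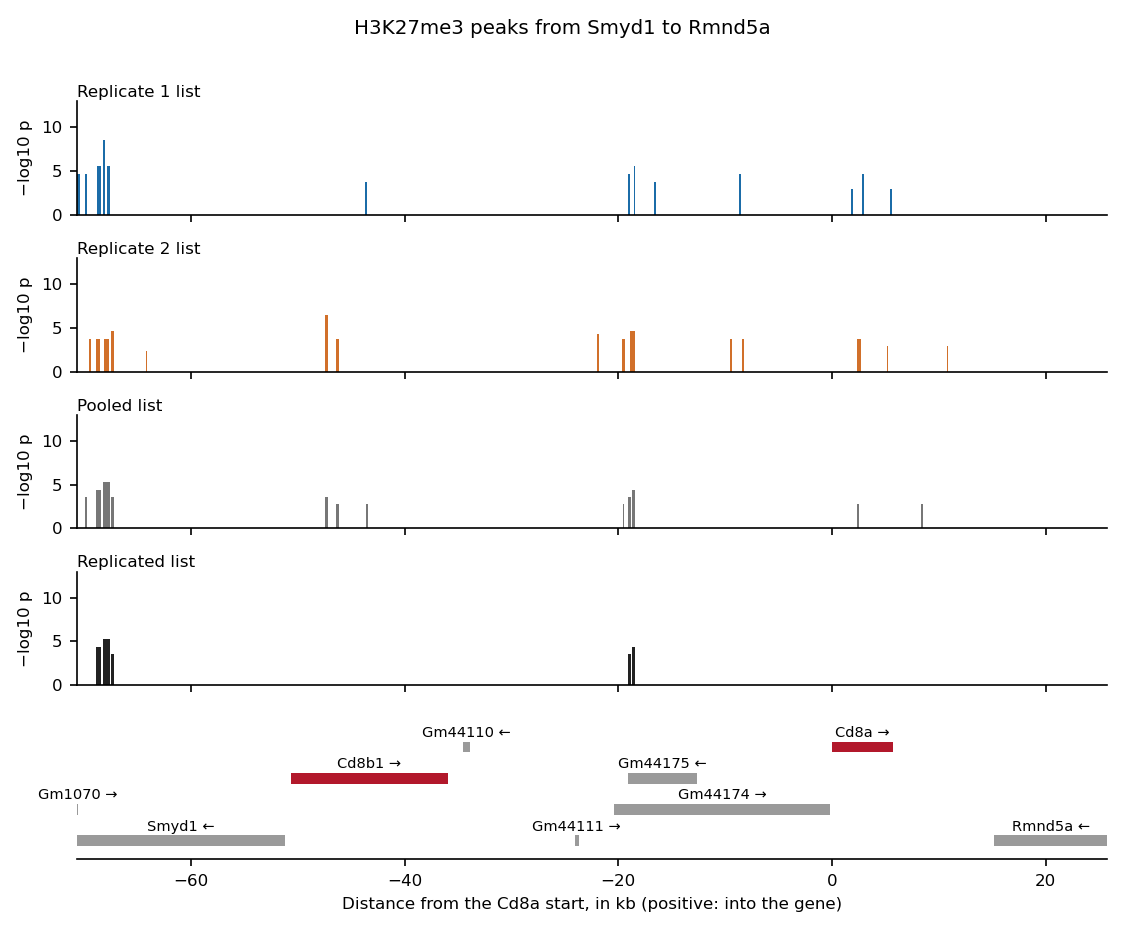
Peaks of each list around Cd8b1 and Cd8a, by distance from the Cd8a start in kb (x axis, positive into the gene) and the authors' −log10 p (y axis, same scale as for Cd4), above bars for the genes, the described genes in red. The 5 replicated peaks sit in Smyd1 and in the gap between the Cd8 genes, and peaks within the gene bodies appear in single lists of the replicates or in the pooled list.

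Peaks recurred between replicates more at the Cd4 locus than at the Cd8 locus. Around Cd4 and Lag3, 29 of the 43 peaks of replicate 1 (67.4%) overlapped a peak of replicate 2, and 27 of the 47 of replicate 2 (57.4%) overlapped one of replicate 1. Around the Cd8 genes these were 5 of 13 (38.5%) and 3 of 15 (20.0%), where the lists as a whole had 44.9% and 29.8%. Of the bases covered in either replicate, 28.1% were covered in both around Cd4 and Lag3, 15.3% around the Cd8 genes and 15.8% over the genome. In stretches of 2 kb, 18 of 44 around Cd4 and Lag3 had peaks in both replicates, 2 in replicate 1 alone and 4 in replicate 2 alone. Around the Cd8 genes 7 of 49 had peaks in both, 3 in replicate 1 alone and 5 in replicate 2 alone. Peaks were also denser around Cd4 and Lag3, with 11.3% and 15.2% of bases covered in the replicates against 2.79% and 3.98%, and the part of this in the shared peaks was not tested.

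Of 55 listed genes that work with the co-receptors, regulate them or are related to Lag3 in function, 1 had a peak at its start in the replicated list, near the 3.003% of all protein-coding genes. A replicated peak in the body was found in 8 of 55 (14.5%), where all genes had 11.5%. Among 15 genes of T-cell receptor signalling the replicated list placed 0 peaks at a start, again within 1 kb, and peaks in 4 bodies. Among them were Cd3g (6.78% of the body covered) and Cd247 (1.49%), which encode signalling chains of the T-cell receptor complex, and Cd5 (1.29%), which encodes a surface regulator of its signals. Lck, the kinase that both co-receptors carry, had 0 covered bases in its window in the replicated list, with 0.656% and 3.53% of its body covered in the replicates. The median window of this list was covered over 0.570%, that of all genes over 0%.

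Of 18 regulators of the co-receptor genes 0 had a peak at the start and 1, Satb1, a chromatin organizer, had one in the body, over 0.609%. Runx1, a RUNX factor of blood cells, and Gata3, a T-cell transcription factor, had 0 covered bases in their windows in the replicated list. The windows of Runx3 and of Zbtb7b, which set the CD8 and CD4 lineages, were covered over 1.94% and 4.71% outside the gene bodies. Of 12 genes of ligands and antigen presentation 1, Nlrc5, an activator of MHC class I genes, had a peak at the start and 7.79% of its body covered. Ciita, its counterpart for MHC class II, had 0.364% of its body covered. Of 10 inhibitory receptor genes and ligands, the group of Lag3, 0 had a peak at the start and 1, Cd244a, had one in the body (0.764%). Across these 55 genes the most covered body in the replicated list was that of Nlrc5, at 7.79%, where Cd4 had 31.8%. In the pooled list and in replicate 2 it was that of Cd3g, at 10.5% and 12.9%.

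H3K27me3 peaks do not measure RNA, so the labelled line could be checked only by marked starts, which 3.003% of all protein-coding genes had in the replicated list. Lists of 6 to 11 genes with 0 or 1 marked are not set apart by that share. Of 11 erythroid genes 1, the anion exchanger gene Slc4a1, was marked at its start in the replicated list, and Gata1, Klf1, Tal1, Nfe2 and Alas2 had 0 covered bases in their windows in all 4 lists. Of 8 T-cell marker genes in the annotation 0 were marked at the start, and of 6 B-cell genes 0. Of 6 myeloid genes 3 were marked, namely Csf1r, a growth factor receptor gene, Cd14, an endotoxin co-receptor gene, and the lysozyme gene Lyz2. Itgam, an integrin gene of myeloid cells, had 15.7% of its body covered without a peak at its start.

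Genes of most similar pattern were those with the smallest Euclidean distance over 6 values, the covered shares of the 20 kb upstream, the body and the 20 kb downstream in each replicate, in percentage points. For Cd4 they were Slc47a1, a transporter gene, at 8.48 points, Mycbpap at 8.89 and the keratin gene Krt10 at 10.7, all on chromosome 11. The body of Slc47a1 was covered over 26.5% and 33.5% in the replicates, beside 27.4% and 35.5% for Cd4. For Lag3 they were Dcaf13 at 0.531 points, Ppp1ca at 0.581 and Phtf1 at 0.955, each with an uncovered body and upstream flank and a covered downstream flank. For Cd8a they were Kdelc2 at 1.48 points, Greb1l at 2 and 1110004F10Rik at 2.19. For Cd8b1 they were 9130409I23Rik at 2.48, Camk2a at 2.6 and Pkp3 at 2.62. Of the 4 genes Cd4 was the farthest from its most similar gene, and its body shares were also the highest. The distance is in absolute percentage points and can grow with the covered shares. It therefore does not rank how particular the 4 patterns are.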

How the data were processed

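H3K27me3 peaks of 2 replicates of MEL cells were taken from the mm10 narrow-peak lists that the authors deposited. Per the deposited text descriptions, each replicate's peaks were called against a shared control, the pooled list on both alignments, and the replicated list was derived from these; all 38298 replicated peaks on chromosomes 1 to 19, X and Y matched a pooled peak exactly. The aligner, the caller and the keeping rule were not given in the sources used here. Each deposited peak carries a signal value, a score of unstated definition, and the authors' −log10 p-value and −log10 q-value, used only to describe or filter peaks within a list. Depth is unknown. The mm9 list was not used here.

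Genes were those of GENCODE mouse release 21 on GRCm38. Covered share is the union of peaks over a stretch, a gene's start is its outermost 5′ end, a peak counts from 1 bp of overlap, and domains join gaps of up to 3 kb. Python 3.11.15 and numpy 2.4.6 were used, and the code was tested on simulated data. The members and gene lists were chosen with earlier results of these data known, and no test was run. Named genes were the members, genes in their windows, covered members of the lists (at most 6 each, with some uncovered ones named for their role after their values were seen) and the 3 most similar genes. A gene that this rule selects is not reported here. Trac and Trbc1 had no protein-coding entry. Alternatives were the other lists, each replicate left out, −log10 q of at least 2, the upper 50% by signal, flanks of 5 and 50 kb, joining within 1 and 10 kb, and 3 other definitions of a marked start.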

Additional observations from a re-analysis of the deposited data

How the results depend on the processing

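Cd4 stayed the most covered window under each of the 7 alternatives. The covered share of the Cd4 window was 5.36% with peaks of −log10 q of at least 2, 13.6% with the upper 50% by signal, 26.1% with flanks of 5 kb and 9.19% with flanks of 50 kb, and each replicate alone gave 15.5% to 20.9%. The Lag3 window gave 5.09% in the pooled list, 0% at that q-value, 2.63% with the upper 50%, 0% with 5 kb and 8.54% with 50 kb flanks, which reach into the Cd4 body, and 4.06% to 5.50% in single replicates. The Cd8a window gave 2.49% pooled, 0% at that q-value, 0% with 5 kb, 0.629% with 50 kb and 2.69% to 3.73% in single replicates, and the Cd8b1 window gave 5.58%, 0%, 0%, 1.88% and 3.64% to 5.35% in the same order. With the upper 50% by signal the Cd8a and Cd8b1 windows stayed at their replicated values, 1.45% and 3.67%. The longest domain at Cd4 and Lag3 was 6020 bp when gaps of up to 1 kb were joined, 32030 bp with 10 kb and 5374 bp at that q-value. In single replicates it was 27797 to 38362 bp. In the pooled list it was 18265 bp and lay elsewhere, from intron 1 across the Cd4 start toward Lag3. The pooled domain over the 3′ portion was 12004 bp. The longest domain touching the Cd8a and Cd8b1 windows was 1662 bp with 1 kb and 3887 to 13135 bp in single replicates. Each time it lay over Smyd1 and touched neither Cd8 gene. The q-value threshold left no peak in these windows and so no value. With that threshold 0 of the 4 genes had a peak at the start, and under the other 6 alternatives 1 had, each time Cd4. The causes were not tested. No paired analysis was possible because there is 1 group and no test.

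Limits were the unknown depth, 2 replicates with 1 control, and narrow peaks that split broad domains, so that spans and gaps depend on the joining distance. The Cd8 values rest on 5 replicated peaks, none of which reached a −log10 q of 2.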

Other observations

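The promoters of the 4 genes, taken as 1 kb on each side of the start, were poor in CG dinucleotides. Cd4 had 24, Lag3 27, Cd8b1 32 and Cd8a 39, where the median protein-coding gene had 61. At least the 24 of Cd4 were found at 73.9% of genes. The marked gene of the 4 was thus the one with the fewest, and with 4 genes this is a description only. The observed to expected ratio of CG was 0.22 at Cd4, 0.204 at Lag3, 0.226 at Cd8b1 and 0.294 at Cd8a, beside a median of 0.474.

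The replicated peaks around Cd4 and Lag3 had a median GC content of 48.9%, with 43.0% over all replicated peaks, and a CG ratio of 0.154 beside 0.164. The Cd4 body had a GC content of 47.7%, where the median gene body had 45.2%.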
